A study of Mus musculus with 21 samples.

Results

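The Hox genes described here are 38 protein-coding genes of the mouse whose symbols start with Hoxa, Hoxb, Hoxc or Hoxd followed by a number. They were chosen by symbol from RefSeq genes on GRCm38.p6, the assembly behind mm10, which is the build of the files, out of 20953 protein-coding genes with a curated transcript on chromosomes 1 to 19 and X. They lie in 4 clusters. The HoxA cluster (10 genes, from Hoxa2 to Hoxa13) lies at chr6:52162417-52260880 and the HoxB cluster (10 genes) at chr11:96194316-96368254. The HoxC cluster (9 genes) lies at chr15:102921131-103036856 and the HoxD cluster (9 genes) at chr2:74668225-74765142. Of the 38 genes, 37 had a peak of RBBP4 within 1 kb of an annotated end and 17 had a peak of RBBP7. CHD4, HDAC1 and HDAC2 had none at any of the 38, and MBD3 had a peak at 1.

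Hox proteins are homeodomain transcription factors that give cells of the body axis and limbs their position from head to tail. The genes stand in the order in which they are used along that axis, from group 1 (hindbrain) to group 13 (tail and digits), and they are not known for a role in the forebrain. Polycomb complexes, which place repressive marks on histones, are known for keeping Hox clusters silent where they are not used. The proteins immunoprecipitated here are subunits of NuRD, a complex that joins a nucleosome remodeller (CHD4), histone deacetylases (HDAC1 and HDAC2), a member of the methyl-CpG binding family (MBD3) and histone-binding proteins (RBBP4 and RBBP7). RBBP4 and RBBP7 are close relatives of each other and are also subunits of other complexes, among them Polycomb repressive complex 2.

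The tissue was the ganglionic eminence of CD1 mouse embryos, the part of the ventral forebrain from which the basal ganglia form. At E13.5 (embryonic day) there was 1 ChIP-seq library for each of the 6 subunits, with 3 input libraries, and the labels give these samples no genotype. At E12.5 chromatin accessibility (ATAC-seq) was compared between wild-type and Dlx1/2 knockout embryos, with 3 embryos per genotype in each of 2 cell fractions. FTpos cells came from the ventricular zone, and FTneg cells from the subventricular zone and the mantle. Each fraction has 1 deposited list of regions more open in each genotype, with the embryos combined. How many embryos went into a ChIP library, and how cells were fractionated for ATAC-seq, is not given in the sources used here. RNA was not analysed here, so whether Hox genes were expressed, and the tissue itself, could not be checked against expressed markers.

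The ChIP lists held 91480 peaks in all, from 5517 (HDAC2) to 29762 (RBBP4), with 18274 for CHD4, 11288 for HDAC1, 11721 for MBD3 and 14918 for RBBP7. The depth of the libraries is unknown, and with 1 list per subunit no value below has a replicate. The lists deposited with the CHD4, HDAC1 and HDAC2 samples bear each other's names (HDAC1, HDAC2 and CHD4 in that order). Lists are called here by the label of their sample, and because all 3 were empty across the Hox clusters the counts there are the same under either naming, while every value of these 3 lists outside the clusters would change places. By the labels RBBP4 and RBBP7 share input 3, while CHD4 and MBD3 share input 2 and HDAC1 and HDAC2 share input 1. A difference between RBBP4 or RBBP7 and the other lists therefore cannot be told apart from a difference between inputs and libraries.

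The first question was which subunits were found at the ends of Hox genes. RBBP4 had a peak within 1 kb of an end of 37 of the 38 Hox genes (97.4%, Wilson 95% interval 86.5 to 99.5), against 47.9% of all curated genes. RBBP7 had one at 17 of 38 (44.7%, interval 30.2 to 60.3), against 12.51%. CHD4 had none (0 of 38, interval 0 to 9.18%), against 45.7% of all genes, and the same count of 0 stood against 28.0% for HDAC1 and 10.0% for HDAC2. MBD3 had a peak at 1 gene, Hoxa4 (2.63%, interval 0.466 to 13.49), against 23.8%. These intervals cover counting over genes only. Neighbouring Hox genes are not independent, since 1 peak can lie at the ends of both.

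Read together, the lists left 36 Hox genes with RBBP4 or RBBP7 and none of the other 4 subunits at their ends. This combination was found at 6.92% of all curated genes. RBBP4 without any other list was found at the ends of 20 Hox genes (5.57% of all genes). RBBP4 with RBBP7 but without the other 4 was found at 16 (1.08% of all genes). A gene counted in this way can hold other lists in its body, as Hoxa3 did with 5 peaks of RBBP7 and 1 of MBD3. A peak of at least 1 of CHD4, HDAC1, HDAC2 and MBD3 was found at 1 Hox gene, against 50.4% of all genes. Hoxa4 was the Hox gene with the most lists, at 3, and no Hox gene had all 6, against 3.0% of all genes. Hoxc4 was the 1 gene with no peak of any list at its annotated ends, so that 37 of 38 had a peak of at least 1 list, against 57.3% of all genes. Its body held 4 RBBP4 peaks, which covered 20.8% of it. A RefSeq promoter window of Hoxc4 lies within that body and was overlapped by an RBBP4 peak of 4.92-fold.

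**Figure D1:**
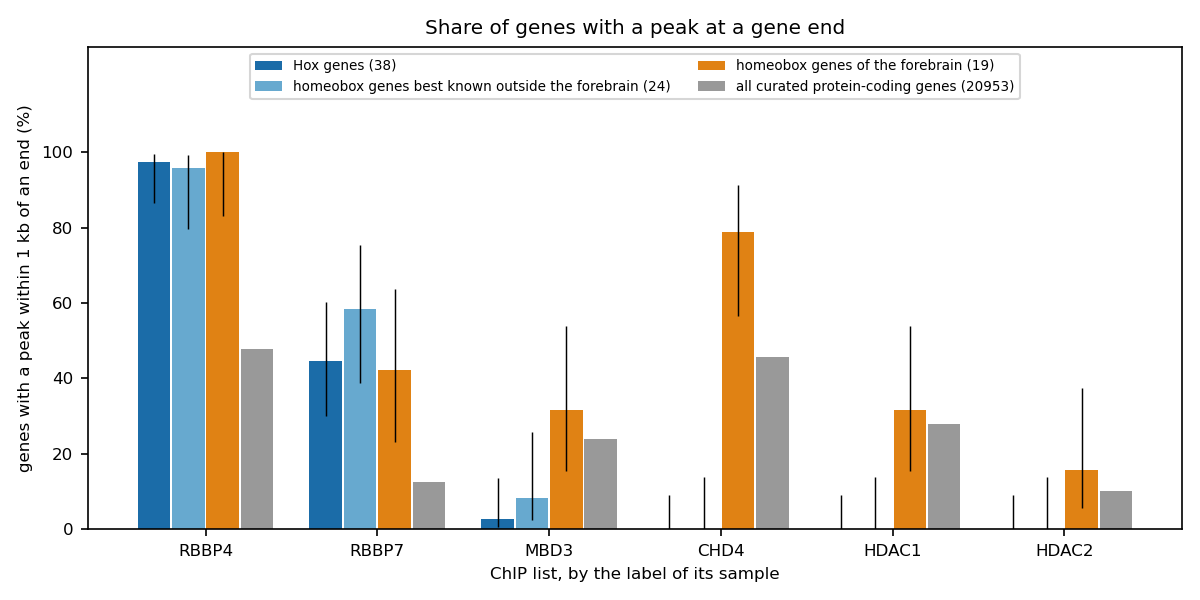
The bars give the share of genes (%) with a peak within 1 kb of an end in each ChIP list, for the 38 Hox genes, 24 homeobox genes best known outside the forebrain, 19 homeobox genes of the forebrain and all 20953 curated genes. Lines are Wilson 95% intervals over genes. RBBP4 stands at 97.4% of Hox genes and CHD4, HDAC1 and HDAC2 at 0.

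The share of Hox genes with RBBP7 depended on weak peaks. With only peaks of −log10 q of at least 10 (q is the caller's p-value adjusted over the list), RBBP7 was left at 1 Hox gene, Hoxb9 (2.63%), against 2.87% of all genes. With every list reduced to its 5517 peaks of lowest p, the length of the shortest list, RBBP7 was likewise left at 1 Hox gene, against 2.72% of all genes. At both settings the share of Hox genes with RBBP7 stood at the background. RBBP4 was left at 34 Hox genes (89.5%) against 34.9% at the stricter q, and at 21 (55.3%) against 12.6% at equal length. CHD4, HDAC1 and HDAC2 had 0 Hox genes at both settings, which only remove peaks and so could not change a count of 0.

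The promoter table of RefSeq held 24 promoter windows for 22 of the 38 Hox genes, each from 250 bases before to 50 bases after a start. RBBP4 overlapped 23 of the 24 windows (95.8%), against 43.1% of 20418 windows of all curated genes, and RBBP7 overlapped 6 (25.0%), against 8.69%. None of the other 4 lists overlapped a Hox window, against 46.3% of all windows for the 4 together (CHD4 40.9%, HDAC1 20.7%, MBD3 18.8% and HDAC2 6.7%). The windows of 4 genes are given here by their 250 bases upstream of the start, with each CG in capitals, because they include the highest RBBP4 folds over a Hox window, the window with the most CGs and the window without RBBP4. The build is GRCm38.p6 and the sequences, from RefSeq, run 5′ to 3′ on the strand of the gene.
Hoxd11, first start (chr2:74679308-74679557, plus strand): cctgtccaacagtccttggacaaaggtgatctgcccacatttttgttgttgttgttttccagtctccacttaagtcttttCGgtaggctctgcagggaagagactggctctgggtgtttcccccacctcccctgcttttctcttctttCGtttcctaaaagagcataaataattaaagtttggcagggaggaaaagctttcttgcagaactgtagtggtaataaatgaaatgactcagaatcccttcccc
Hoxd11, second start (chr2:74682073-74682322, plus strand): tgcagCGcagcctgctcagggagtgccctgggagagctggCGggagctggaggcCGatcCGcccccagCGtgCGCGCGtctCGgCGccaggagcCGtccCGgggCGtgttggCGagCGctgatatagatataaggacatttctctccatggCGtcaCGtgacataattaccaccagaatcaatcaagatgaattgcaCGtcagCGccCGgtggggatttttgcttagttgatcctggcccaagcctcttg
Hoxa11 (chr6:52245811-52246060, minus strand): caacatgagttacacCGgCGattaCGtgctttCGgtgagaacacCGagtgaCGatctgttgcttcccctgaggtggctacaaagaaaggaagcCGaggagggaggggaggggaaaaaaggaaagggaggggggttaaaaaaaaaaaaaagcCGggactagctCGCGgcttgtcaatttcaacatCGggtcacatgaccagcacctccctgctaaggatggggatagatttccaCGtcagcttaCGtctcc
Hoxa13 (chr6:52260881-52261130, minus strand): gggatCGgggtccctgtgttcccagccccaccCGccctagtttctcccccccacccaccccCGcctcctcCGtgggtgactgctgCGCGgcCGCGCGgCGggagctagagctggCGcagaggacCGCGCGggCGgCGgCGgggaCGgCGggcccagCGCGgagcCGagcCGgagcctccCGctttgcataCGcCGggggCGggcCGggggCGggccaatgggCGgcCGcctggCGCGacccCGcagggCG
Hoxd4 (chr2:74721728-74721977, plus strand): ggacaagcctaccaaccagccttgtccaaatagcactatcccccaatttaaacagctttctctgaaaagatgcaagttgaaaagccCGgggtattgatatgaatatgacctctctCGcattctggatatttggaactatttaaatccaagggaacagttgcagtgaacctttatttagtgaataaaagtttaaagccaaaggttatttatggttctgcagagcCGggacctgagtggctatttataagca

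These sequences hold from 2 to 35 CG dinucleotides. The first start of Hoxd11 has 2 CGs and the second has 20, and both windows were overlapped by the same RBBP4 peak, of 11.9-fold enrichment over input at its summit. The Hoxa11 sequence has 13 CGs and lay under a peak of 11.3-fold. The Hoxa13 sequence has 35 CGs, and the RBBP4 peak over its window had a fold of 5.76. The Hoxd4 sequence has 3 CGs, and its window was the 1 Hox window without RBBP4. The summit of the 11.9-fold peak, at position 74682253, lay in the window of the second Hoxd11 start, and the window of the first start met the edge of that peak.

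Over the 24 windows of 300 bases, the number of CGs ranged from 4 to 45 with a median of 14.5, close to the median of 14 over all windows, and the median GC content was 57.7% against 57.0%. CpG-rich promoters (GC of at least 50% and a ratio of observed to expected CG of at least 0.6) numbered 11 among the Hox windows and 9533 among all. RBBP4 overlapped all 11, against 72.9% of CpG-rich windows, and RBBP7 overlapped 4, against 14.9%. CHD4 overlapped 72.1% of all CpG-rich windows, HDAC1 37.7%, MBD3 34.3% and HDAC2 11.8%, and at least 1 of them overlapped 80.5%. None of these lists overlapped a CpG-rich Hox window. The homeodomain motif TAATTA, which is its own reverse complement and so was read on both strands at once, was found in 2 of the 24 Hox windows (8.33%), those of Hoxd11, against 4.45% of all windows.

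**Figure D2:**
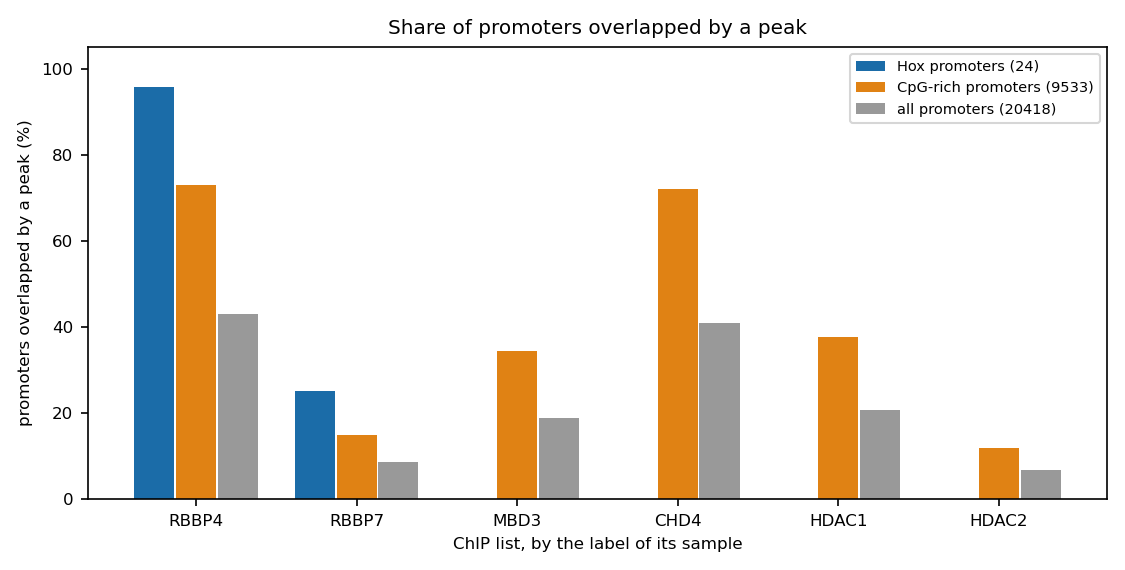
The bars give the share of promoter windows (%) overlapped by a peak of each list, for 24 Hox windows, 9533 CpG-rich windows and all 20418 windows. RBBP4 overlaps 95.8% of Hox windows and RBBP7 25.0%, and the other 4 lists overlap none.

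Across the clusters from first to last gene, RBBP4 had 145 peaks in 485.0 kb. That is 299 peaks per Mb, against 28.0 per Mb in the 500 kb on either side of each cluster and 11.4 per Mb over the genome. The peaks covered 37.1% of the clusters, against 2.34% of the flanks and 0.781% of the genome. Coverage was 51.3% in HoxA (31 peaks), 49.8% in HoxD (34 peaks), 34.2% in HoxC (35 peaks) and 23.9% in HoxB (45 peaks). HoxB thus had the most peaks and the lowest share covered.

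RBBP7 had 35 peaks across the clusters, of which 16 lay in HoxA, 10 in HoxD, 5 in HoxB and 4 in HoxC. They stood at 72.2 per Mb, against 10.0 in the flanks and 5.71 over the genome, and covered 3.25% of the clusters against 0.474% and 0.293%. MBD3 had 2 peaks (4.12 per Mb), a density below that of the flanks (9.25) and near that of the genome (4.49). CHD4, HDAC1 and HDAC2 had no peak inside a cluster, while the flanks held 43, 32 and 19 of their peaks. Every cluster had peaks of all 3 in its flanks.

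**Figure D3:**
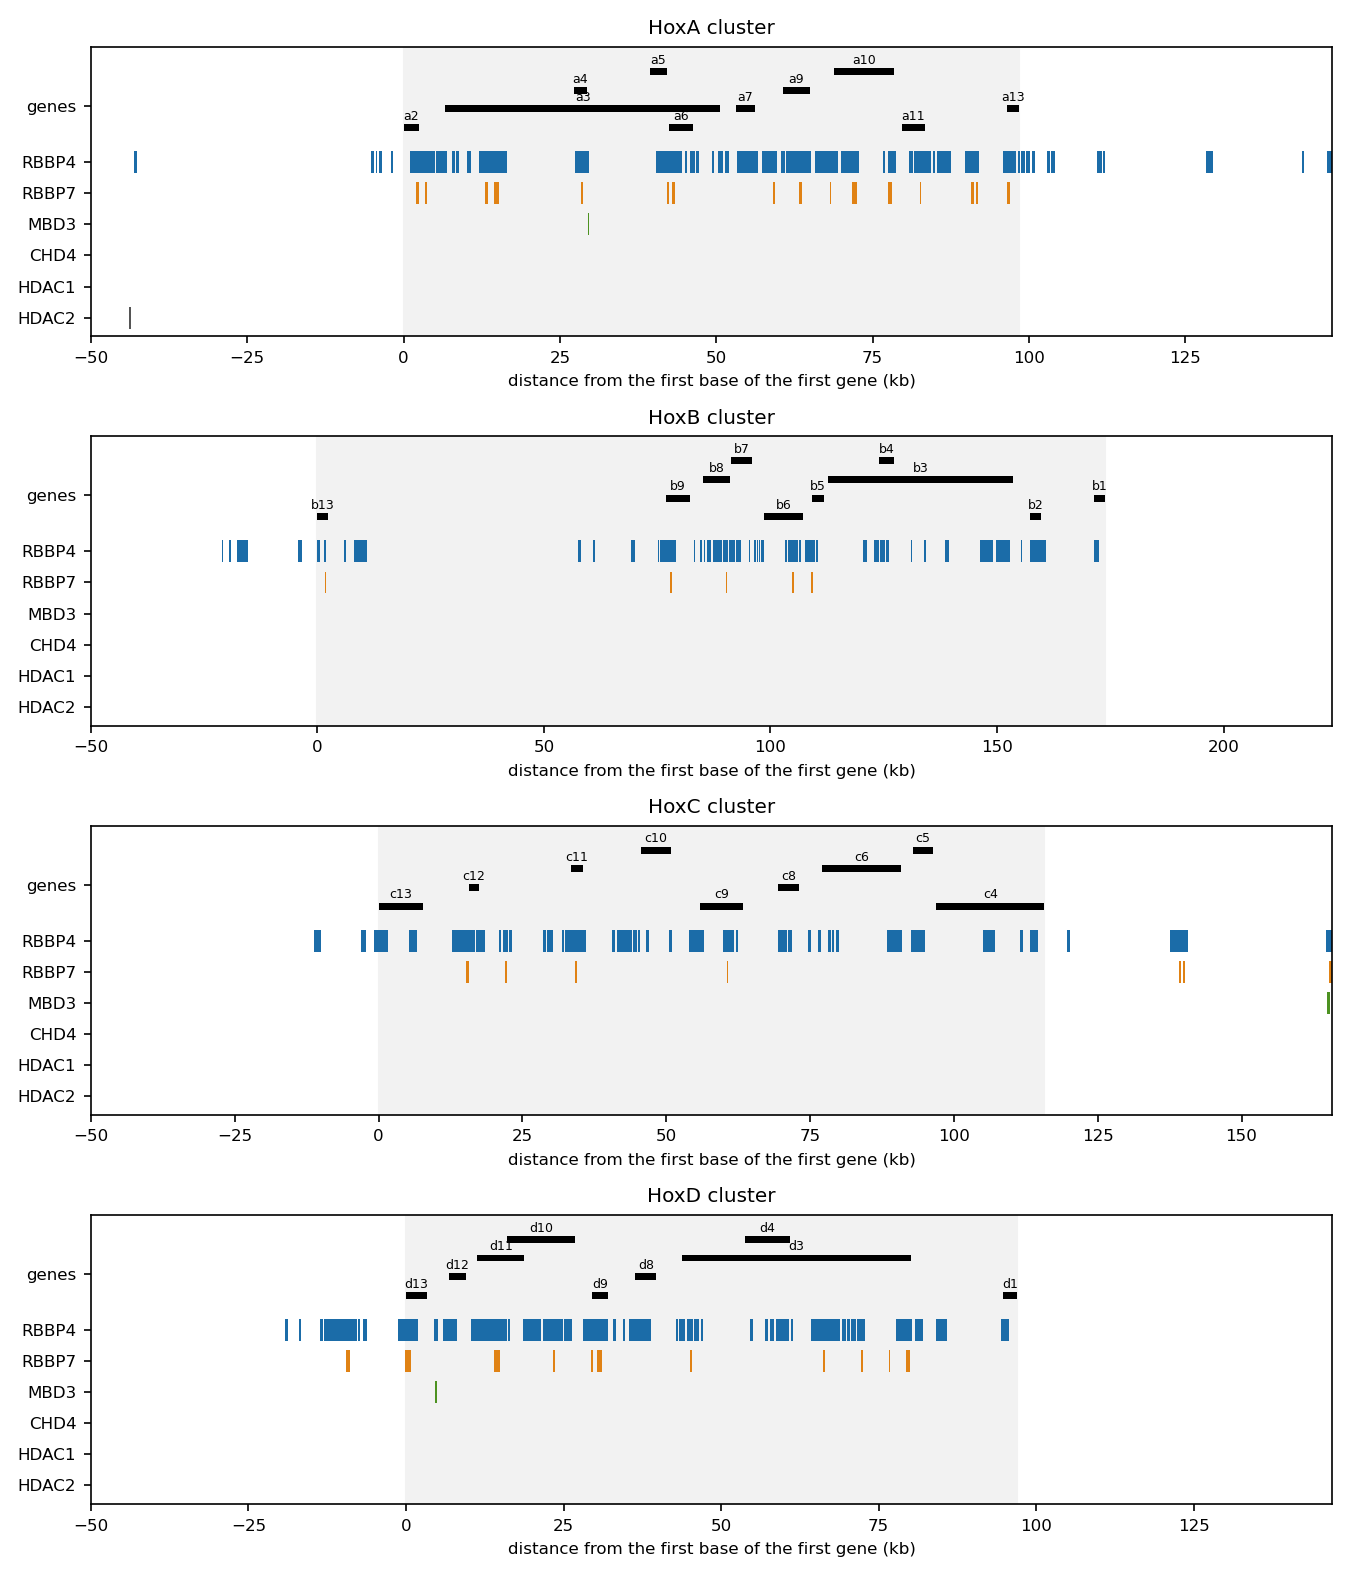
Each panel shows 1 Hox cluster (shaded) with 50 kb on either side, by distance in kb from the first base of the first gene. Black bars are genes, labelled by cluster letter and number, and coloured bars are peaks of each list, with the shortest drawn at 0.25 kb. RBBP4 bars fill 37.1% of the shaded spans and the CHD4, HDAC1 and HDAC2 rows are empty there.

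The stretches of RBBP4 were the longest and densest in the genome by some measures. When RBBP4 peaks no more than 5 kb apart were joined into chains, 5 of the 10 longest of 23150 chains lay in Hox clusters. The longest ran 66.3 kb from the neighbouring gene Evx2 to Hoxd3 with 26 peaks, and the next ran 63.8 kb from within Hoxa3 past Hoxa13 with 28 peaks. The third ran 41.3 kb over Hoxb9 to Hoxb5 with 23 peaks. With a largest gap of 2.5 kb, Hox clusters held 2 of the 10 longest chains, and with 10 kb they held 4. The chains of rank 1 and 2 lay in Hox clusters at each gap. Among the 10 longest at 5 kb, the chain at Tbx3, outside Hox clusters, held no peak of CHD4, HDAC1, HDAC2 or MBD3. Those at Dlx5 and Dlx6 and at Pax6 held 16 and 14 peaks of the CHD4 sample. In the list that bears the name CHD4, that of the HDAC2 sample, the last 2 chains held 3 and 0 peaks.

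Among 26318 bins of 100 kb, the 4 with the highest RBBP4 coverage all held Hox genes, with 41.8% covered in HoxA, 32.9% in HoxC, and 30.4% and 26.5% in HoxD. At least 10 RBBP4 summits were found in 96 bins (0.365% of all), of which 8 held part of a Hox cluster. Of these 96 bins, 15 held no summit of CHD4, HDAC1, HDAC2 or MBD3, and 5 of the 15 were Hox bins. The 88 other bins held a median of 14 such summits. The longest stretch without RBBP4 in a cluster was in HoxB, 46.7 kb between Hoxb13 and Hoxb9, and the longest in each of the other clusters was from 8.63 to 10.8 kb.

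The RBBP4 peaks in Hox clusters were wide, and on the whole not high, within their list. Their fold enrichment over input, the authors' value at the summit, ran from 2.87 to 11.9 with a median of 4.71, close to the median of 4.85 over the list. Their width ran from 280 to 4944 bp with a median of 738 bp, against 532 bp. Of the 145 peaks, 35 were at least 2 kb wide (24.1%, against 2.40% of the list), and 7 of the 92 peaks of at least 4 kb in the list lay in Hox clusters. Those 7 lay in HoxA (3 peaks), HoxC (1) and HoxD (3), and none in HoxB.

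RBBP7 peaks in the clusters were short and low within their list. They ran from 280 to 986 bp, with a median of 387 bp against 427 bp over the list, and their median fold of 5.46 compared with 6.20. Of the 35, 34 overlapped an RBBP4 peak (97.1%, against 65.5% of all RBBP7 peaks). The exception, at chr2:74744793-74745072 inside Hoxd3, had a fold of 4.48. In the other direction, 29 of the 145 RBBP4 peaks in the clusters overlapped RBBP7 (20%, against 31.3% of the list). The 29 were wide and high, with a median width of 2615 bp and fold of 7.44, and the other 116 had medians of 567 bp and 4.50.

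When overlapping peaks of all 6 lists were merged, the clusters held 146 regions. RBBP4 was alone in 115 (78.8%, against 23.6% of 38820 regions in all), and RBBP4 with RBBP7 and no other list made up 28 (19.2%, against 7.59%). Regions with any of the other 4 subunits numbered 2 (1.37%, against 56.3%). None of the 1527 regions with all 6 subunits lay in a Hox cluster.

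Among the single genes, the highest RBBP4 peak at the ends had a fold from 4.29 to 11.9 with a median of 7.44 over the 37 Hox genes with a peak. Over all 10045 curated genes with RBBP4 at an end the median was 5.13, within a range of 2.2 to 18.8. The highest of several peaks can be higher merely because there are more of them. Hox genes had a median of 2 RBBP4 peaks at their ends and up to 5, and the comparison was not adjusted for this. The 37 genes drew on 33 distinct peaks, because the pairs Hoxa5 and Hoxa6, Hoxb5 and Hoxb6, Hoxb7 and Hoxb8, and Hoxd10 and Hoxd11 share theirs. RBBP4 covered from 15.9% (Hoxc10) to 100% (Hoxb2, Hoxc11 and Hoxd9) of a gene's body, with a median of 55.9%. For the 17 genes with RBBP7 at an end, the highest RBBP7 fold ran from 4.36 to 7.73 with a median of 5.27.

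The anterior genes, of paralogue groups 1 to 4, pattern the hindbrain and the cranial nerves. Their highest RBBP4 fold had a median of 6.13 (4.29 to 8.24) over the genes with a peak, and RBBP7 was at 3 genes. Hoxb1, a gene of the fourth rhombomere, had a single RBBP4 peak at its ends of 4.32-fold. Hoxb2 and Hoxb3 were also low at their ends, at 4.56 and 4.29, although a peak of 3618 bp covered the whole of Hoxb2. The body of Hoxb3 held 12 RBBP4 peaks, among them one of 6.965-fold and 2587 bp. Hoxa2, which sets the identity of the second branchial arch, stood at 7.22, with an RBBP7 peak of 5.46-fold in the same place. Hoxa3 had 4.86-fold at its ends, but its body, which spans Hoxa4 to Hoxa6, held 13 RBBP4 peaks. Hoxb4 had 6.05-fold, Hoxd1 6.20 and Hoxd4 7.42, each without RBBP7. Hoxd3 stood highest of these genes at 8.24-fold, with RBBP7 at 5.27.

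Hoxa4 was the 1 gene with peaks of 3 subunits. An RBBP4 peak of 2256 bp and 6.59-fold covered 95.8% of the gene, and an RBBP7 peak of 4.36-fold lay inside it. The MBD3 peak, at chr6:52191830-52192119, was 290 bp wide and 4.13-fold.

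The central genes, of groups 5 to 8, are used in the neck and trunk. Their median highest RBBP4 fold was 7.95 (5.27 to 10.05) over 11 genes, of which 5 had RBBP7. Hoxd8 stood highest at 10.05-fold, with a peak of 3494 bp that covered 72.7% of the gene, and it had no RBBP7. Hoxa7 stood at 8.46-fold, Hoxc5 at 8.38 and Hoxc8 at 7.53, also without RBBP7. Hoxa5, which is needed for the lung and the airways, shared with Hoxa6 a peak of 4187 bp and 8.04-fold, with RBBP7 at 4.85-fold inside it. Hoxb5 and Hoxb6 shared a peak of 2391 bp and 7.95-fold, and RBBP7 lay within 1 kb of an end of Hoxb5 alone, at 6.51-fold. Hoxb7 and Hoxb8 shared both an RBBP4 peak of 6.94-fold and an RBBP7 peak of 4.93-fold. Hoxc6 was the lowest of these genes at 5.27-fold.

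The posterior genes, of groups 9 to 13, pattern the lumbar and tail region, the limbs and the urogenital tract. Their median highest RBBP4 fold was 7.61 (4.29 to 11.9) over 16 genes, of which 9 had RBBP7, and they hold both the highest and one of the lowest values. Hoxd10 and Hoxd11 shared the highest peak in the clusters, 11.9-fold and 4944 bp wide at chr2:74679356-74684299. Its summit lay inside Hoxd11, 2020 bp from the nearest annotated end of Hoxd10. The promoter window of Hoxd10 was overlapped by another RBBP4 peak, of 6.95-fold. Hoxa11, needed with Hoxd11 for the forearm and the kidney, had 11.3-fold (chr6:52243962-52246815), with RBBP7 at 4.92. Hoxa13, a gene of the digits and the hindgut, had 11.0-fold (chr6:52258288-52260390), with RBBP7 at 5.38. Hoxb9 had 8.68-fold and the highest RBBP7 peak in the clusters, at 7.73. Hoxd9 (7.89), Hoxc11 (7.78), Hoxc12 (7.18), Hoxa10 (6.62), Hoxd13 (6.18) and Hoxb13 (5.41) carried RBBP7 as well, at 5.52, 6.51, 5.70, 6.20, 4.49 and 4.48-fold. The promoter windows of Hoxa10 were overlapped by RBBP4 peaks of 5.73 and 9.46-fold, the higher more than 1 kb from an annotated end. At their annotated ends Hoxc9 (7.95), Hoxa9 (7.44), Hoxd12 (7.44) and Hoxc13 (6.87) had RBBP4 without RBBP7, as did Hoxd10 and Hoxd11. In their bodies Hoxc9, Hoxa9, Hoxd10 and Hoxd11 each held 1 RBBP7 peak. RBBP7 also overlapped the promoter windows of Hoxd10 and of the second Hoxd11 start. RBBP7 was thus found at genes with high and with low RBBP4 peaks in these groups. The highest peak at the ends of Hoxc10 was of 4.29-fold and 298 bp wide.

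**Figure D4:**
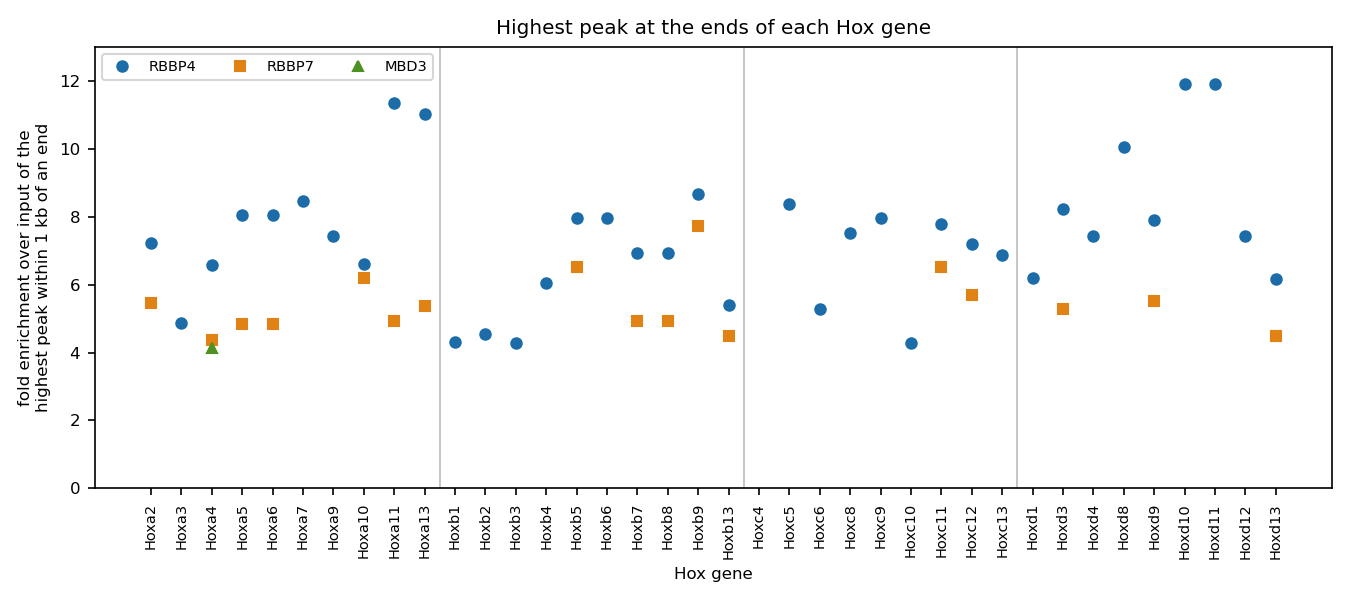
Each point is the fold enrichment over input of the highest peak within 1 kb of an end of a Hox gene, by list (circles RBBP4, squares RBBP7, triangle MBD3), with genes ordered by cluster and number. Each point is a single library's value, and values of different lists are not on a common scale. RBBP4 ranges from 4.29 to 11.9, and Hoxc4 has no point.

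The medians of the highest RBBP4 fold by cluster were 7.89 in HoxD, 7.74 in HoxA, 7.36 in HoxC and 6.5 in HoxB, and the ranges of all 4 overlapped. RBBP7 was at 7 of 10 genes in HoxA, 5 of 10 in HoxB, 2 of 9 in HoxC and 3 of 9 in HoxD. The highest RBBP4 peaks of HoxB (11.1-fold, chr11:96298264-96300375, inside Hoxb6) and HoxC (9.18-fold, chr15:102980972-102982976, inside Hoxc9) lay more than 1 kb from a gene end, so they do not enter the values by gene. The highest RBBP7 peaks lay inside Hoxa10 (7.08-fold, chr6:52234197-52234875), Hoxb9 (7.73-fold, chr11:96272143-96272651) and Hoxd10 (7.42-fold, chr2:74691485-74691940). That of HoxC (6.92-fold, chr15:102943087-102943428) lay outside the genes, 4565 bp from Hoxc12. The second MBD3 peak, at chr2:74672860-74673152 between Hoxd13 and Hoxd12, had a fold of 3.74 and overlapped an RBBP4 peak of 6.18-fold.

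The clusters also hold genes that make no protein. Of 23 long noncoding RNA genes, 21 were overlapped by RBBP4 (against 25.8% of 12697 such genes in the genome), 8 by RBBP7 (13.1%) and 1 by MBD3 (11.3%). None was overlapped by CHD4 (14.6%), HDAC1 (9.47%) or HDAC2 (6.07%). Hotair, whose RNA has been studied as a regulator of Hox genes, had a single RBBP4 peak of 3.98-fold, and Hoxa11os, antisense to Hoxa11, lay at the 11.3-fold peak of that gene. Of 6 microRNA genes, 4 were overlapped by RBBP4 (against 6.11% of 1228 in the genome), and none by another list. The share of all microRNA genes under the other lists was not taken, so their count of 0 among 6 genes cannot be read against a background. The mature 5p sequences of the miR-10 and miR-196 families, which are built into the clusters and target Hox transcripts, are shown because members of 1 seed family differed in RBBP4. They are from RefSeq, with the seed (bases 2 to 8) in capitals.
miR-10a-5p (HoxB): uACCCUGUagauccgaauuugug
miR-10b-5p (HoxD): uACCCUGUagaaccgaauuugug
miR-196a-5p (HoxB and HoxC): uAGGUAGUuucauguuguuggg
miR-196b-5p (HoxA): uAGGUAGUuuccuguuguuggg

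Mir10a and Mir10b, which share the seed ACCCUGU, both lay under RBBP4, at 5.99 and 5.25-fold. In the miR-196 family, with the seed AGGUAGU, Mir196b lay under a peak of 6.62-fold. The 2 genes of miR-196a did not, with the nearest RBBP4 peak 662 bp from Mir196a-1 and 1268 bp from Mir196a-2. Mir615, inside Hoxc5, lay under the 8.38-fold peak of that gene.

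The boundary of the pattern was read from the 3 nearest protein-coding genes without a Hox symbol on either side of each cluster, 24 in all. RBBP4 was at an end of 21 (47.9% of all curated genes), RBBP7 at 9 (12.51%) and CHD4 at 16 (45.7%). HDAC1 was at 11 (28.0%), MBD3 at 9 (23.8%) and HDAC2 at 4 (10.0%). At these neighbours all 6 lists stood above their share over all genes, RBBP4 and RBBP7 included. The homeobox genes Evx1, 52.6 kb beyond Hoxa13, and Evx2, 6.71 kb beyond Hoxd13, followed the Hox genes. Evx1 had RBBP4 (9.0-fold) and RBBP7 (5.85) and Evx2 had RBBP4 (4.69), and neither had a peak of the other 4 subunits. Ttll6 and Calcoco2 before HoxB, Smug1 after HoxC and Atp5g3 before HoxD had RBBP4 alone, Skap1 after HoxB had RBBP4 and RBBP7, and Atp5g1 had no list. The other 16 neighbours had at least 1 of CHD4, HDAC1, HDAC2 and MBD3. Among them Skap2, before Hoxa2, had all 6 lists, and Lnpk, 88.8 kb from Hoxd13, had CHD4, HDAC1, MBD3 and RBBP4.

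Lists of other homeobox genes and of partners and regulators of Hox genes were read in the same way. Over all curated genes, RBBP4 was at 47.9%, RBBP7 at 12.51%, CHD4 at 45.7%, HDAC1 at 28.0%, MBD3 at 23.8% and HDAC2 at 10.0%. Homeobox genes best known outside the forebrain, such as the Cdx, Tlx and Alx genes, stood close to the Hox genes in all 6 lists. RBBP4 was at 23 of these 24 genes (95.8%) and RBBP7 at 14 (58.3%), CHD4, HDAC1 and HDAC2 were at none, and MBD3 was at 2 (Gbx1 and Cdx1). Homeobox genes of the forebrain, such as the Dlx and Otx genes, also had RBBP4, at 19 of 19, and RBBP7, at 8 (42.1%). The other lists were also found at them, with CHD4 at 15 of 19 (78.9%, interval 56.7 to 91.5, against 0 to 9.18 for Hox genes), HDAC1 at 6, HDAC2 at 3 and MBD3 at 6. These intervals do not overlap for the list of the CHD4 sample, and no test of the difference was made. The list that bears the name CHD4, that of the HDAC2 sample, was at 3 of 19 (15.8%, interval 5.52 to 37.6), which overlaps the interval for Hox genes. The pattern of RBBP4 without CHD4, HDAC1 and HDAC2 was thus not particular to the Hox genes.

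The TALE homeodomain proteins (Pbx, Meis and Pknox) are the DNA-binding partners of Hox proteins. RBBP4 was at 9 of their 9 genes, against 47.9% of all curated genes. At least 1 of CHD4, HDAC1, HDAC2 and MBD3 was at 8, against 50.4% of all genes, with Meis3 the exception. Of 26 genes of the Polycomb and Trithorax groups, which silence and sustain Hox expression, 21 had RBBP4 and 23 had at least 1 of those 4 subunits. Of 17 genes of retinoic acid signalling and other regulators upstream of Hox genes, 13 had RBBP4 and 5 had at least 1 of the 4. RBBP4 or RBBP7 without the other 4 was found at 6.92% of all curated genes. In these lists it was found at 1 TALE gene and 1 Polycomb or Trithorax gene (Kdm6b). It was also found at 8 genes of the retinoic acid list, among them Cyp26a1, Aldh1a2 and Cdx2.

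The second question was whether accessibility at the Hox clusters differed between wild-type and Dlx1/2 knockout embryos. No region of any of the 4 accessibility lists lay in a Hox cluster, within 1 kb of a Hox gene end or within 100 kb of a cluster. The lists were short, with 727 regions more open in the knockout and 53 more open in the wild type in FTneg, and 12 and 33 in FTpos. Their share of all curated genes with a region at an end was 0.186% (knockout) and 0.0191% (wild type) in FTneg, and 0.0191% (knockout) and 0.0143% (wild type) in FTpos, so a count of 0 among 38 genes is near the background. The nearest regions were 181 kb from HoxB (more open in the wild type in FTneg, chr11:96013048-96013410) and 323 kb from HoxA (more open in the knockout in FTneg, chr6:52584236-52584870). The lists hold only regions that differed between genotypes, and they say nothing of how open the Hox clusters were in either.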

How the data were processed

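The authors' deposited ChIP lists hold peaks with a fold enrichment over input at the summit (a ratio), a −log10 p and a −log10 q. Per the names of the deposited lists, peaks were called against input and blacklisted regions were removed. The submitters' processing notes name mm10 as the build and, as tools, MACS2 2.2.7.1, Genrich, BWA, deepTools and SAMtools 1.10. Settings are not given in the sources used here. The score of each deposited accessibility region is an area over −log10 p, of at least 500 as the authors kept them. Fold values were used to describe and rank peaks within a list.

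The 38 Hox genes and the gene lists were chosen with earlier results of these data known. A further gene that the symbol rule matches is not analysed here, and flanks and neighbours were taken beyond it. A gene was counted when a peak overlapped, by at least 1 bp, the 1 kb on either side of an annotated gene end. The gene table gives no strand or exons. Every Hox gene was to be accounted for, with values for up to 12 genes with the most lists, for those with RBBP4 or RBBP7 alone, and for the highest peak of each list in each cluster. Shares are set beside those of all 20953 curated genes, with Wilson 95% intervals and no test. Flanks were 500 kb a side, and the genome was the span of annotated genes on chromosomes 1 to 19 and X. Promoters and microRNAs were matched by symbol. Counting was tested on simulated peaks. Python 3.11.15 and pandas 2.3.3 were used.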

Additional observations from a re-analysis of the deposited data

How the results depend on the processing

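Over 17 counts and 64 alternative values, 47 stayed within 1.5 times the reported count and 17 did not. CHD4, HDAC1 and HDAC2 kept 0 Hox gene ends and 0 peaks in the clusters at every setting run. Only the window of 5 kb could have raised their count of gene ends from 0. The other settings run for these lists remove or narrow peaks, so a count of 0 had to stay 0. Such values are among the 47 and say nothing of how stable the result is. With peaks of −log10 q of at least 10, RBBP4 peaks across the clusters went from 145 to 70 and RBBP7 peaks from 35 to 3. At that setting Hox genes with RBBP7 went from 17 to 1, regions with RBBP4 and RBBP7 only from 28 to 3, and MBD3 had 0 gene ends and 0 peaks. With lists of equal length (5517 peaks of lowest p), RBBP4 was left at 21 Hox genes with 25 peaks, RBBP7 at 1 gene with 2 peaks and MBD3 at 0 genes with 0 peaks. There any list was at 21 genes and regions with RBBP4 and RBBP7 only numbered 1. These 2 settings hold fewer peaks by construction. With a window of 5 kb, RBBP7 was at 26 Hox genes and MBD3 at 3. Hox clusters held 5 of the 10 longest RBBP4 chains at a gap of 5 kb, 2 at 2.5 kb and 4 at 10 kb. The chains of rank 1 and 2 lay in Hox clusters at each gap. Counting chains was a choice made after seeing the data. The 5 kb window was not run for merged regions, which use no gene end. No paired analysis was possible because each ChIP list comes from 1 library and each accessibility list combines its embryos. The depth is unknown, so a missing peak does not show that a subunit was absent.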
